A study of Mus musculus with 6 samples.

Results

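Transmembrane mucins and genes of the calcium-activated chloride channel regulator (Clca) family were examined in mouse tumor organoids exposed to the chemotherapy combination Folfiri. The 8 genes were the mucins Muc1, Muc4, Muc13 and Muc20 and the Clca genes Clca2, Clca3a1, Clca3b and Clca4a, among 24190 genes with counts. They were chosen on the counts of the same 6 libraries, because their levels were higher after Folfiri, so their differences between the groups are given as a description without a test. RNA was sequenced from MTO54, a mouse tumor organoid (MTO) line with AKP alterations, Apc and Trp53 among them, that control and treated samples share. All samples come from this 1 line, and organoids in BME, a basement membrane extract, lack the other tissues of a mouse. In both groups single cells were seeded in BME and grown in complete stem cell medium for 2 days. The medium was then replaced for 2 days, in 3 control samples by fresh medium and in 3 Folfiri samples by medium with 5FU at 50 μg/μl, in the unit that the labels give, and SN38 at 100 nM. The duration is that of the labels and the methods, whereas a figure legend of the study gives a longer one, and the unit of 5FU may be a slip for a smaller one. 5FU blocks thymidylate synthesis and is built into RNA and DNA, and SN38, the active form of irinotecan, traps topoisomerase I on DNA.

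Transmembrane mucins are epithelial surface proteins with a long extracellular domain, rich in serine, threonine and proline, that carries dense O-linked sugar chains and shields the apical membrane. Their short cytoplasmic tails, best studied in MUC1, can take part in signalling with receptor tyrosine kinases and catenins. Clca proteins are secreted or membrane-anchored proteins with a metalloprotease domain that cuts the protein itself. They modulate calcium-activated chloride currents without forming a channel, and Clca1 is the member that goblet cells secrete with their mucus.

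The libraries held between 22103591 and 30098210 counts on genes. Levels are given as CPM, counts scaled to a common library size, after trimmed mean of M values (TMM) scaling, which corrects library size for composition, and log2 fold changes with their standard error (SE) come from edgeR's quasi-likelihood fit across the 14692 genes that passed its filter on low counts. A gene is called when its Benjamini-Hochberg adjusted p over these genes is under 0.05. Of the tested genes 79.1% were called, 40.3% as higher and 38.8% as lower after Folfiri. Every Folfiri sample was above every control sample for 41.6% of them and below every control sample for 39.9%. Control replicate 1 differed from control replicates 2 and 3 more than these differed from each other, with chi-square values per degree of freedom of 24.9 and 23.3 against 3.95. Folfiri replicate 3 likewise differed from Folfiri replicates 1 and 2, with 13.3 and 12.9 against 3.75 between these. Values that turn on either sample are given without it below. Nothing in the labels says whether samples of a group came from separate cultures, so the spread may be technical.

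The upstream sequences of Muc13, Clca3b and Clca3a1 are shown first, because these had the largest differences of the 8 genes. The windows run from 250 to 31 bases before the RefSeq start of each gene on GRCm38.p6, 220 bases in all, and are written 5′ to 3′ along the strand of the gene. Capitals mark matches to the motifs searched on both strands.
Muc13 (chr16:33793787-33794006, plus strand): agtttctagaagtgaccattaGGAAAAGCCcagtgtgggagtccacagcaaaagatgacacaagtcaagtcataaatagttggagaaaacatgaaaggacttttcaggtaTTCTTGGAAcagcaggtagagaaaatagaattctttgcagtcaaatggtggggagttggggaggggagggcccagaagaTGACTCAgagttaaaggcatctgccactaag
Clca3b (chr3:144849333-144849552, minus strand): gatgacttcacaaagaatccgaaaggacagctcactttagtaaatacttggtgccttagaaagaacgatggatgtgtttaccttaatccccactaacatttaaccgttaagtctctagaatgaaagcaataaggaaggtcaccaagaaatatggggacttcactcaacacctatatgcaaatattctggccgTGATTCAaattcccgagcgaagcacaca
Clca3a1 (chr3:144761008-144761227, minus strand): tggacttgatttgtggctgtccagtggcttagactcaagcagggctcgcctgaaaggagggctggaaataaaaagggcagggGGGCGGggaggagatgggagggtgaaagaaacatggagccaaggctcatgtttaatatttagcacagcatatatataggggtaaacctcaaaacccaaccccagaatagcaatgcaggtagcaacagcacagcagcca
The TGANTCA motif of AP-1, the FOS and JUN family of transcription factors, was present 58 bases before the RefSeq start of Clca3b. In Muc13 it was present 61 bases before the RefSeq start. In GENCODE, the annotation used for gene positions below, Clca3b begins further upstream, at 144849357, and the motif spans that base. A further window of Muc13, before another RefSeq start and inside the GENCODE gene, held the motif 179 bases before that start. Among all 32851 RefSeq windows of 250 bases, 6.75% held it. The Clca3a1 window held no match, and it was 52.2% identical to that of Clca3b over 232 aligned bases. The window of Clca3a2, a neighbouring Clca gene not among the 8, was 68.4% identical to that of Clca3b over 234 aligned bases. These 2 windows share an identical run of 39 bases that holds the motif.

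RefSeq windows were found for 7 of the 8 genes, 8 windows in all, and not for Clca4a. The TATA box (TATAAA) occurred in Muc1 and Muc4, as in 12.4% of all windows, and so did the GGAATG motif of TEAD factors, present in 12.6%. The GGGCGG motif of SP and KLF factors was found in Muc1 and Clca3a1 and in 32.7% of all windows, and the GGAAGT motif of ETS factors in Clca2 and in 19.7%. The Clca2 window lies inside the GENCODE gene. The Muc13 window printed above also held a STAT motif (TTCNNNGAA) and an NF-kB motif (GGNNTTTCC), found in 7.02% and 4.93% of all windows. Neither the GATA motif (AGATAA) nor the E-box (CACGTG) occurred in these 8 windows, against 9.99% and 6.02% of all. The motifs do not overlap one another in the windows shown, and a match is a run of letters and not a measured binding site.

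All 8 genes passed the filter, but Muc20, Clca2, Clca3a1 and Clca4a were past its level in no control sample and so passed through the Folfiri group. In all 8 every Folfiri sample was above every control sample, as in 41.6% of all tested genes, and nothing is read from this count because the genes were chosen for this direction. Clca3a1, Muc13 and Clca3b differed by 5.42 to 5.54 on the log2 scale, Muc20, Clca4a and Clca2 by 2.26 to 2.91, and Muc1 and Muc4 by 1.49 and 1.16. In the order of log2 fold changes over the 14692 genes Clca3a1, Muc13 and Clca3b were at ranks 37, 46 and 48, and Muc4 was at rank 2414. In bulk RNA a change in the number of cells that express a gene and a change in RNA per cell cannot be told apart.

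**Figure D1:**
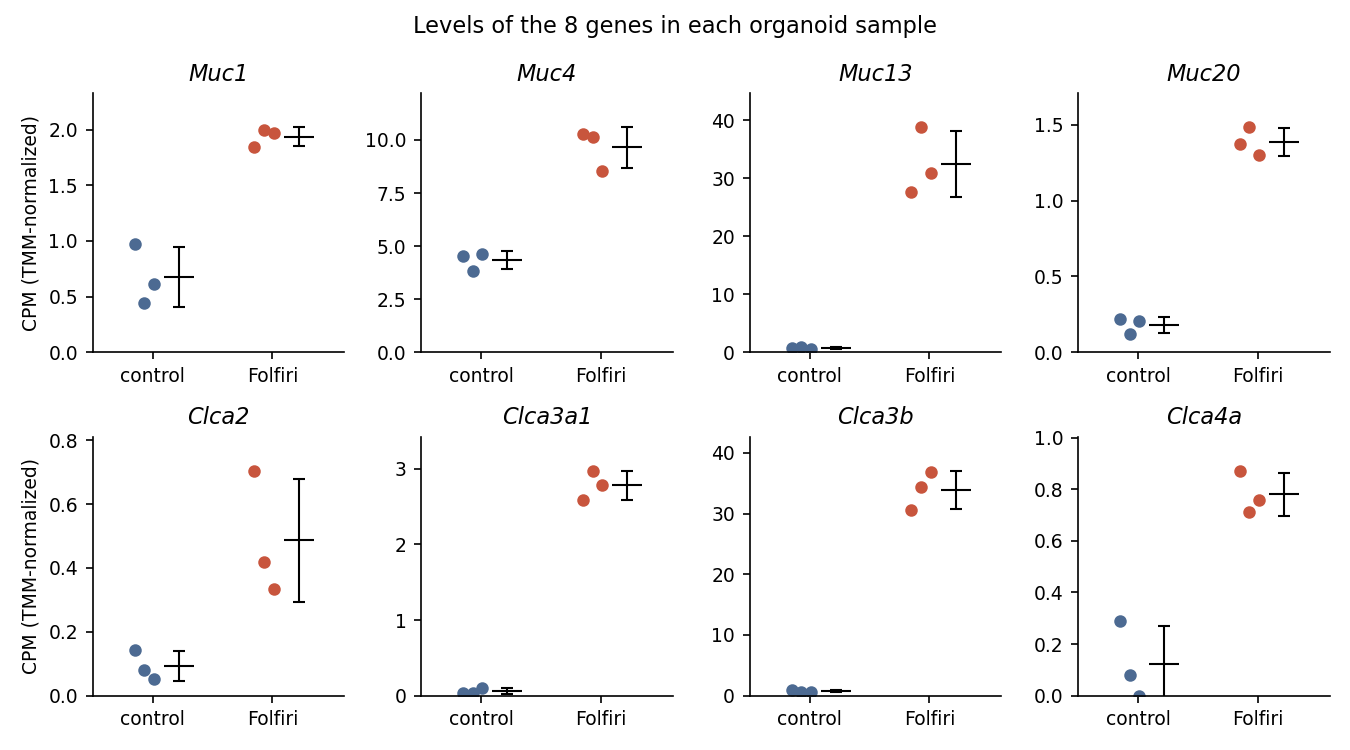
Level of each of the 8 genes in the 3 control (blue) and 3 Folfiri (red) samples, in TMM-normalized CPM on linear axes that start at 0 and differ between panels. Points are samples in the order of their replicate numbers, and the bar beside them is the mean with the SD. In each panel the 3 Folfiri samples lie above the 3 control samples.

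Muc13, a transmembrane mucin of the intestinal surface with epidermal growth factor-like domains, is ENSMUSG00000022824 on chromosome 16 from 33794037 to 33819934, plus strand. Its counts were 20, 23 and 10 in control replicates 1 to 3 and 826, 1203 and 1019 in Folfiri replicates 1 to 3. The Folfiri samples were far above the controls, and Folfiri replicate 2 was the highest. The level was 0.718 ± 0.203 CPM (SD, n = 3) in controls and 32.5 ± 5.73 CPM (SD, n = 3) after Folfiri, with a log2 fold change of 5.46 (SE 0.20). The ratio of the summed counts, scaled for library size, was 44.3 with an exact 95% interval from 33.8 to 59.3, which covers counting error only, here and below. An antisense transcript, Gm15657, shares 184 of the exonic bases of Muc13, or 6.06%, and its own counts were not analysed here.

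Clca3b, for which little function is known, is ENSMUSG00000037033 on chromosome 3 from 144822623 to 144849357, minus strand. Its counts were 28, 17 and 12 in the controls against 910, 1065 and 1213 in the Folfiri samples. All 3 Folfiri samples were more than an order of magnitude above the highest control. The level was 0.768 ± 0.210 CPM (SD, n = 3) in controls and 33.9 ± 3.17 CPM (SD, n = 3) after Folfiri, with a log2 fold change of 5.42 (SE 0.17), and 5.69 without control replicate 1. The count ratio was 43.1, with an interval from 33.2 to 57.0. The processed pseudogene Gm16215 lies on the opposite strand within an intron of Clca3b, from 144847574 to 144848210, and shares 0 exonic bases with it. Gm16215 had 0 counts in the 3 controls and 0, 1 and 1 in the Folfiri samples, and thus takes a negligible number of the reads beside the 910 or more of Clca3b in these samples.

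Clca3a1, the founding mouse Clca gene, is ENSMUSG00000056025 on chromosome 3 from 144729677 to 144760977, minus strand. It had 1, 1 and 2 counts in the controls against 77, 92 and 92 in the Folfiri samples. The controls were near 0 and the Folfiri samples were alike. The level was 0.0596 ± 0.0375 CPM (SD, n = 3) in controls and 2.78 ± 0.194 CPM (SD, n = 3) after Folfiri, with a log2 fold change of 5.54 (SE 0.34). Because the controls held 4 counts in all, the ratio of 50.3 has an interval from 19.4 to 186. The antisense transcript Gm34866 shares 170 of its exonic bases (4.36%).

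Clca4a is ENSMUSG00000068547 on chromosome 3 from 144952480 to 144975045, minus strand. Its counts were 8, 2 and 0 in the controls against 26, 22 and 25 in the Folfiri samples. Control replicate 1 was well above the other controls, yet the groups did not overlap. The level was 0.123 ± 0.149 CPM (SD, n = 3) in controls and 0.780 ± 0.0831 CPM (SD, n = 3) after Folfiri, with a log2 fold change of 2.46 (SE 0.52), which was 3.99 without control replicate 1. The count ratio was 5.62, with an interval from 2.89 to 12.2. The antisense transcript Gm16233 shares 334 of its exonic bases (11.1%).

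Clca2, which is known from skin and other stratified epithelia, is ENSMUSG00000036960 on chromosome 3 from 145070263 to 145099443, minus strand. Its counts were 4, 2 and 1 in the controls against 21, 13 and 11 in the Folfiri samples. Folfiri replicate 1 was above the others, and the groups did not overlap. The level was 0.0918 ± 0.0474 CPM (SD, n = 3) in controls and 0.486 ± 0.194 CPM (SD, n = 3) after Folfiri, with a log2 fold change of 2.26 (SE 0.51), and 2.75 without control replicate 1. The ratio of 4.95 had an interval from 2.22 to 13.0, so at this depth the size of the difference is known only roughly.

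Muc20, a small mucin that binds the receptor MET in its human form, is ENSMUSG00000035638 on chromosome 16 from 32777419 to 32797435, minus strand. Its counts were 6, 3 and 4 in the controls against 41, 46 and 43 in the Folfiri samples. Samples within each group were close to each other. The level was 0.181 ± 0.0527 CPM (SD, n = 3) in controls and 1.39 ± 0.0907 CPM (SD, n = 3) after Folfiri, with a log2 fold change of 2.91 (SE 0.29). The count ratio was 7.70, with an interval from 4.35 to 14.9.

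Muc4, a very large mucin that binds the receptor ERBB2, is ENSMUSG00000079620 on chromosome 16 from 32735886 to 32782391, plus strand. Its counts were 126, 96 and 90 in the controls against 306, 314 and 282 in the Folfiri samples. The lowest Folfiri sample was well above the highest control. The level was 4.33 ± 0.432 CPM (SD, n = 3) in controls and 9.65 ± 0.95 CPM (SD, n = 3) after Folfiri, with a log2 fold change of 1.16 (SE 0.14) and a count ratio of 2.23 (interval 1.96 to 2.54). Muc4 and Muc20 overlap tail to tail on opposite strands and share 627 exonic bases, 5.33% of those of Muc4 and 15.6% of those of Muc20. Whether strand was used in counting is not given in the sources used here, so it is unknown whether reads of the pair in this stretch were told apart. No value of either gene without the stretch could be had from gene counts.

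Muc1, the transmembrane mucin whose cleaved tail is known to bind catenins, is ENSMUSG00000042784 on chromosome 3 from 89229057 to 89233381, plus strand. Its counts were 27, 11 and 12 in the controls against 55, 62 and 65 in the Folfiri samples. Control replicate 1 was the highest control and lay below every Folfiri sample. The level was 0.676 ± 0.271 CPM (SD, n = 3) in controls and 1.94 ± 0.0834 CPM (SD, n = 3) after Folfiri, with a log2 fold change of 1.49 (SE 0.26), and 1.90 without control replicate 1. The count ratio was 2.80, with an interval from 2.04 to 3.92.

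To compare levels between genes, CPM were divided by the exonic length in kilobases. On this scale the 4 mucins summed to 0.938 ± 0.133 CPM per kb (SD, n = 3) in controls and 12.7 ± 1.95 CPM per kb (SD, n = 3) after Folfiri. In controls Muc4 at 0.369, Muc1 at 0.288 and Muc13 at 0.236 CPM per kb were near each other, and Muc20 was at 0.0448. After Folfiri Muc13 was at 10.7 CPM per kb, while Muc1 at 0.827 and Muc4 at 0.821 did not differ beyond their spread and Muc20 was at 0.345. The share of Muc13 in the sum of the 4 mucins was 25.6% ± 8.89 (SD, n = 3) in controls and 84.1% ± 2.00 (SD, n = 3) after Folfiri.

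The whole Clca family, 8 genes with Clca1, Clca3a2, Clca4b and the pseudogene Clca4c-ps, summed to 0.856 ± 0.0939 CPM per kb (SD, n = 3) in controls and 14.8 ± 0.802 CPM per kb (SD, n = 3) after Folfiri. In controls Clca1 took the largest share, 63.5% ± 12.7 (SD, n = 3), and Clca3b took 26.6% ± 5.48 (SD, n = 3). After Folfiri Clca3b took 67.9% ± 2.72 (SD, n = 3) and Clca1 19.0% ± 1.28 (SD, n = 3), although the level of Clca1 was itself higher. On the same scale Clca3b was at 10.1 CPM per kb after Folfiri, Clca3a1 at 0.713, Clca4a at 0.260 and Clca2 at 0.105. Clca3b and Muc13 were thus the dominant transcripts of their groups after Folfiri, and their levels per kb did not differ beyond their spread.

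**Figure D2:**
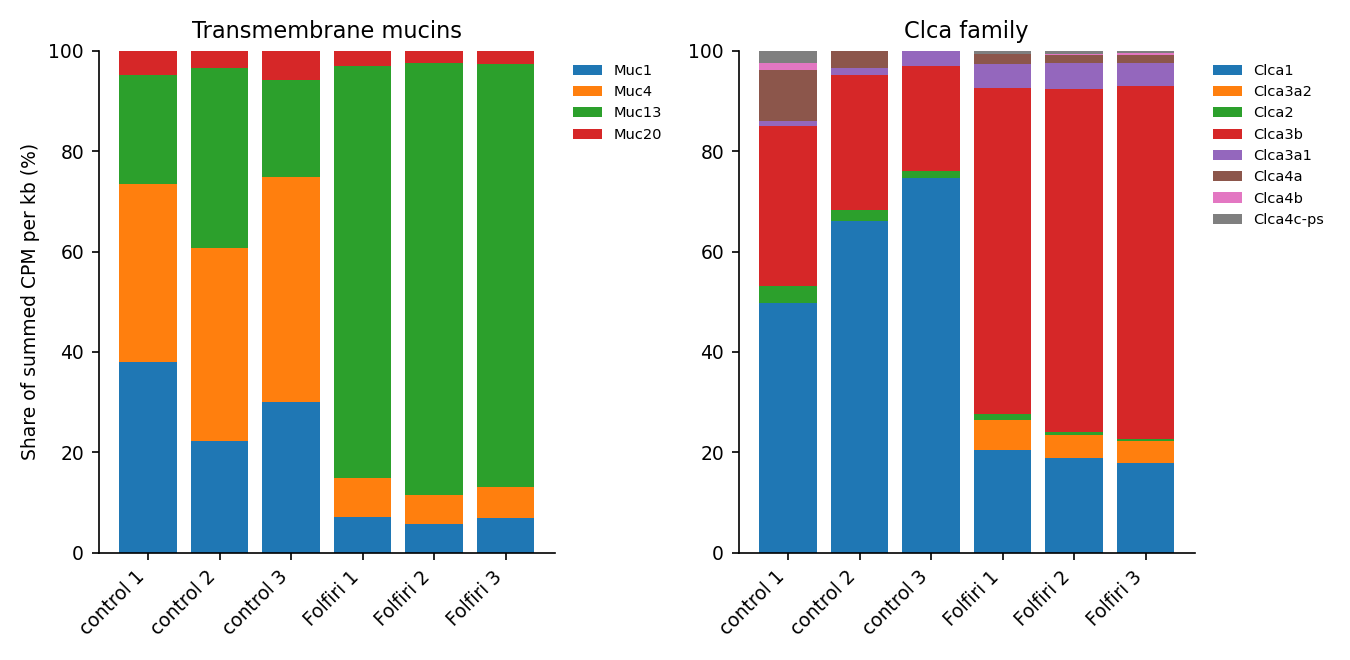
Share of each gene in the summed CPM per kb of exonic length, in percent, for the 4 chosen transmembrane mucins (left) and the 8 genes of the Clca family (right), with 1 bar per sample. Muc13 takes a mean of 25.6% of its group in controls and 84.1% after Folfiri, and Clca3b 26.6% and 67.9%.

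The 4 Clca genes lie in 1 cluster on chromosome 3, spanning 370 kb with the other members of the family, all on the minus strand. Clca1 (ENSMUSG00000028255, 145003817 to 145032776) was not among the chosen genes and had 49, 47 and 48 counts in controls and 321, 330 and 346 after Folfiri. It was at 2.04 ± 0.377 CPM (SD, n = 3) and 10.6 ± 0.134 CPM (SD, n = 3), a log2 fold change of 2.402 (SE 0.15, edgeR adjusted p = 1.51e-07). Clca3a2 (ENSMUSG00000028262, 144796559 to 144819494) had 0 counts in each control and 101, 85 and 88 after Folfiri, so it was at least 70.4-fold higher when the floor is 3 counts over the control group. Clca4b had 1, 0 and 0 counts against 1, 5 and 4, and Clca4c-ps had 2, 0 and 0 against 7, 8 and 8, and both stayed below the filter. The count ratio was 7.70 (interval 1.10 to 334) for Clca4b and 8.86 (interval 2.19 to 77.5) for Clca4c-ps. Of the other Clca genes 2 of 2 tested were called higher, beside 40.3% of all tested genes, and Clca3a2 passed the filter through the Folfiri group only.

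Within 500 kb on either side of the cluster, 3 of the other 4 tested genes were called lower, beside 38.8% of all tested genes. Hs2st1, a heparan sulfate sulfotransferase, had a log2 fold change of -0.57 (edgeR adjusted p = 4.57e-05), Odf2l one of -0.58 (edgeR adjusted p = 5.53e-05) and Sh3glb1, an endophilin family gene, one of -0.29 (edgeR adjusted p = 0.00624). Sh3glb1 was not called when libraries were scaled by total counts, with a value of -0.01. Selenof, which codes for a selenoprotein of the endoplasmic reticulum, was not called (-0.16, edgeR adjusted p = 0.0516).

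**Figure D3:**
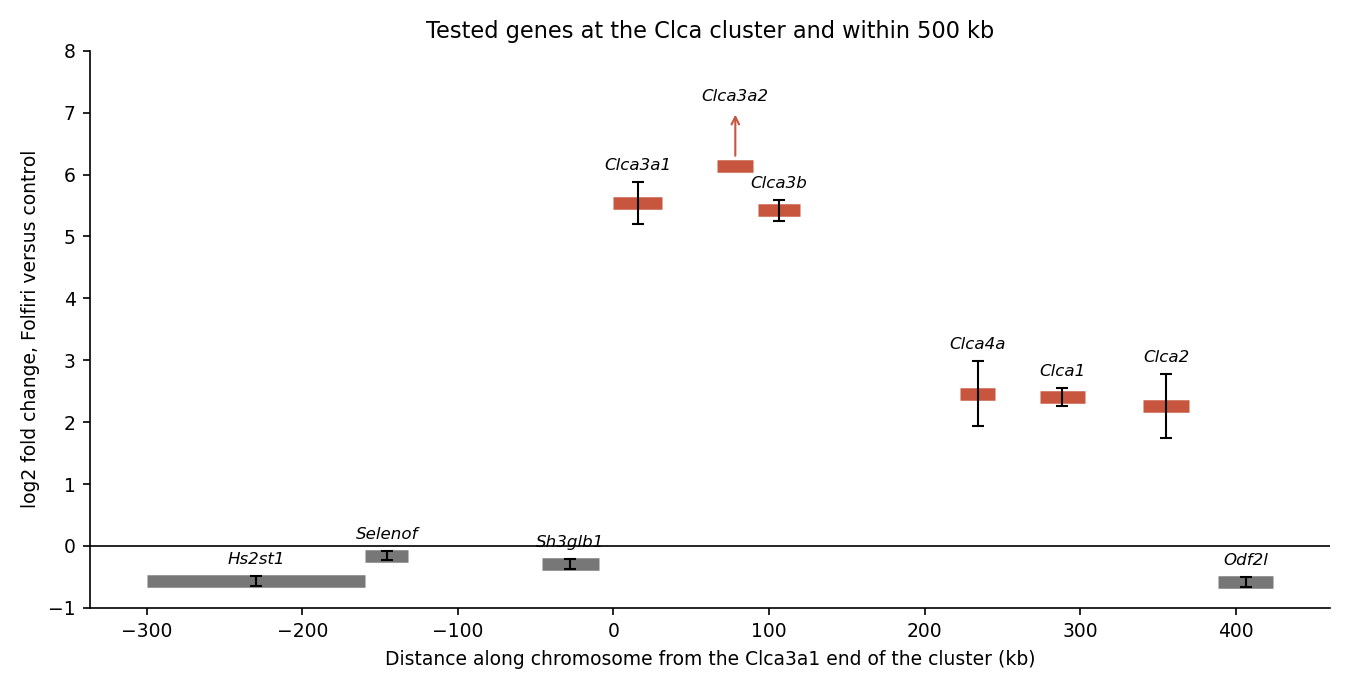
Log2 fold change (Folfiri versus control) of the tested genes at the Clca cluster and within 500 kb of it, against distance in kb from the Clca3a1 end of the cluster. Bars span each gene (red, Clca genes; grey, others), error bars are the SE, and the arrow marks a lower bound for Clca3a2, which had 0 counts in the controls. The Clca genes lie between 2.26 and the bound of Clca3a2, and the 4 flanking genes lie below 0.

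Muc4, Muc20 and Muc13 lie on chromosome 16 in a stretch of 1084 kb. Around them 22 other genes were tested, of which 7 were called higher and 10 lower, with a median log2 fold change of -0.23 against 0.02 for all tested genes. Umps, the enzyme of pyrimidine synthesis that also converts 5FU to its nucleotide, was at 14.5 ± 5.28 CPM in controls and 82.0 ± 5.08 CPM in Folfiri samples (SD, n = 3 in each) and rose, with a log2 fold change of 2.48 (edgeR adjusted p = 7.37e-07). The log2 fold change of Umps was between 2.32 and 2.84 with 1 sample left out. Wdr53 (1.26) and the ubiquitin ligase Rnf168 (0.72) rose as well, whereas Tctex1d2 (-1.48), the integrin subunit gene Itgb5 (-0.88) and the ribosomal protein gene Rpl35a (-0.85) fell. Around Muc1, 13 of 31 tested genes were called higher and 13 lower, with a median of -0.09. Fam189b (3.04), Syt11 (1.76) and Trim46 (1.32) rose there, and the sterol pathway enzymes Fdps (-3.57) and Pmvk (-2.60) and the ephrin ligand gene Efna1 (-1.63) fell. The shares called higher, 31.8% around the chromosome 16 mucins and 41.9% around Muc1, stood beside 40.3% of all tested genes.

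The protein features, translated from GENCODE coding sequences and independent of the counts, set the 4 mucins apart from most Clca proteins. Serine, threonine and proline made up 44.1% of the 631 residues of Muc1, 44.8% of the 3470 of Muc4, 38.0% of the 573 of Muc13 and 43.5% of the 688 of Muc20. In Clca2, Clca3a1 and Clca4a the share was between 20.6% and 23.0%, and no window of 100 residues passed 33%. Clca3b differed from these. Its 1044 residues held 29.98% serine, threonine and proline, and the share reached 78% in the window from residue 881 to 980, above the highest window of each of the 4 mucins (62% to 69%). The stretch covered by windows over 50% ran from residue 836 to the last residue, 209 residues in all. Over 901 aligned residues of the whole proteins, Clca3b was 80.5% identical to Clca3a1 and 80.7% to Clca3a2, and in neither did a window pass 50%.

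**Figure D4:**
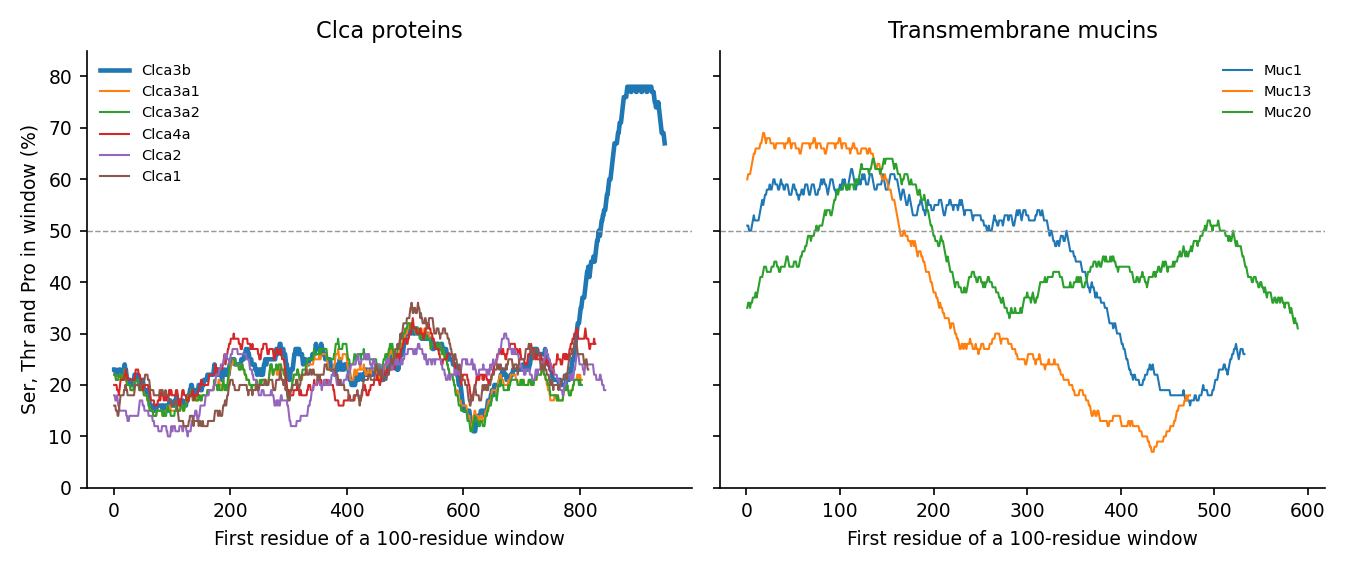
Percent serine, threonine and proline in sliding windows of 100 residues, against the first residue of the window, for 6 Clca proteins (left) and for Muc1, Muc13 and Muc20 (right). The dashed line marks 50%, which Clca3b alone among the Clca proteins passes, reaching 78% near its C-terminal end, and which Muc1 and Muc13 pass already in their first window and Muc20 in windows that cover residues between 75 and 604.

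The metalloprotease motif HEXXH was found in all 4 Clca proteins, with its first match between residues 155 and 164, and Clca2 held 2 matches. The motif GSVVV, at which SEA domains are cut, was found in Muc1 alone of the 8, at residue 474, and GDPH, a cleavage motif of von Willebrand D domains, in Muc4 alone, at residue 2744. The metal-ion motif DXSXS of von Willebrand A domains did not separate the families, with 1 or 2 matches in each mucin, 2 or 3 in Clca3a1, Clca3b and Clca4a and 0 in Clca2. Clca2 was the most distant Clca protein, 42.9% to 47.7% identical to the others.

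Sequence shared with other genes limits some counts. Of the 50-base windows of annotated Clca4a transcripts 41.0% also occurred in another gene, 37.1% in Clca4b or Clca4c-ps, and Clca4a and Clca4b were 93.7% identical in protein. For Clca3a1 26.8% of windows were shared, 23.3% with Clca3a2 or Clca3b, and Clca3a1 and Clca3a2 were 95.3% identical. The share was 6.68% in Clca3b, 5.20% in Muc13, 12.1% in Muc20, 4.31% in Muc4 and 0% in Muc1 and Clca2. Windows were matched on both strands. Muc4 and Muc20, which overlap on opposite strands, shared theirs only with each other. Muc13 shared its windows with 1 gene outside both families. How reads with several positions were counted is not given in the sources used here, so the split between Clca3a1 and Clca3a2 and between Clca4a, Clca4b and Clca4c-ps is uncertain. Within each of these 2 sets every gene had more counts in the Folfiri group than in the control group.

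Of 10 other transmembrane mucins and related sialomucins listed, 3 were tested, and 1 was called higher and 2 lower, beside 40.3% and 38.8% of all tested genes, with a median log2 fold change of -0.73. Muc16, the CA125 antigen, had 7, 2 and 3 counts in controls against 15, 21 and 29 in Folfiri samples, and the ratio of its summed counts was 4.17, with an interval from 2.23 to 8.49. It passed the filter through the Folfiri group only and did not pass a filter of 1 CPM in 3 samples. Parm1 was at 152 ± 9.55 CPM in controls and 53.1 ± 3.53 CPM in Folfiri samples (SD, n = 3 in each) and fell, with a log2 fold change of -1.52 (edgeR adjusted p = 5.44e-08). Cd164, an endolyn sialomucin, was at 305 ± 29.9 CPM in controls and 184 ± 10.4 CPM in Folfiri samples (SD, n = 3 in each) and fell, with a log2 fold change of -0.73 (edgeR adjusted p = 1.97e-05). Of the gel-forming mucins only Muc6 was tested, at 0.456 ± 0.0525 and 0.837 ± 0.488 CPM (SD, n = 3 each), and it was not called (log2 fold change 0.85, edgeR adjusted p = 0.0926, overlapping groups), but it was called with scaling by total counts, at 1.12, and without Folfiri replicate 3. Muc5ac and Muc5b stayed below the filter, and Muc2 and Muc19 were not analysed here.

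Of 29 listed enzymes of mucin-type O-linked sugars, 24 were tested, 6 were called higher and 9 lower, with a median log2 fold change of -0.20, and with scaling by total counts 7 were called higher and 6 lower. The counts of 6 and 9 stand beside the 40.3% and 38.8% of all tested genes called higher and lower, and 1 of the 6 passed the filter through the Folfiri group only. With scaling by total counts 7322 of the 14692 tested genes were called higher and 4250 lower. The sialyltransferases St6galnac2 (3.08, edgeR adjusted p = 6.82e-06), St3gal2 (2.92, edgeR adjusted p = 7.00e-08) and St6galnac4 (1.91, edgeR adjusted p = 8.09e-07) rose. St3gal2 went from 3.68 to 27.9 CPM. Among those that fell were Galnt18 (-1.94, edgeR adjusted p = 1.92e-06) and Galnt7 (-1.19, edgeR adjusted p = 5.72e-07), members of the family that starts these chains on serine or threonine. Fut8, which adds core fucose to N-linked chains, was on the list and fell from 265 to 56.0 CPM (-2.24, edgeR adjusted p = 3.09e-09).

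Among genes of chloride and bicarbonate transport 4 of 16 tested were called higher and 7 lower, beside 40.3% and 38.8% of all tested genes, with a median log2 fold change of -0.24. With scaling by total counts 6 were called higher and 6 lower, beside 7322 and 4250 of all 14692 tested genes. The calcium-activated chloride channel gene Ano1, at 58.9 and 46.7 CPM, was called lower (-0.34, edgeR adjusted p = 0.00438), and Cftr was not called (-0.36, edgeR adjusted p = 0.0727, overlapping groups). Ano10 (-1.64), the chloride proton exchanger gene Clcn3 (-0.98) and the bicarbonate cotransporter gene Slc4a4 (-0.94) fell. Besides Clca1, Ano8 (0.52) and the phospholipid scramblase gene Ano6 (0.39) rose. Best2, a calcium-activated channel gene of colonic goblet cells, had 1, 0 and 1 counts in controls and 50, 52 and 37 after Folfiri. It passed the filter through the Folfiri group only, and the ratio of its summed counts was 53.5, with an interval from 14.5 to 446. Ano1, Cftr and Best2 were named after their values were seen.

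Known signalling partners of membrane mucins had 2 of 10 tested genes called higher and 4 lower, beside 40.3% and 38.8% of all tested genes, with a median log2 fold change of 0.01. With scaling by total counts 6 were called higher and 2 lower, beside 7322 and 4250 of all 14692 tested genes. Met, the receptor of hepatocyte growth factor, rose from 21.5 to 58.1 CPM (1.42, edgeR adjusted p = 9.35e-07) and Src from 67.3 to 115 CPM (0.78, edgeR adjusted p = 1.92e-06). Erbb3 (-1.11, edgeR adjusted p = 9.87e-07), the galectin gene Lgals3 (-1.20, edgeR adjusted p = 1.15e-06) and Sos1 (-0.34, edgeR adjusted p = 0.0149, not called with scaling by total counts) fell. Egfr (0.14), Erbb2 (0.27), Ctnnb1 (0.08) and Grb2 (-0.05) were not called.

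**Figure D5:**
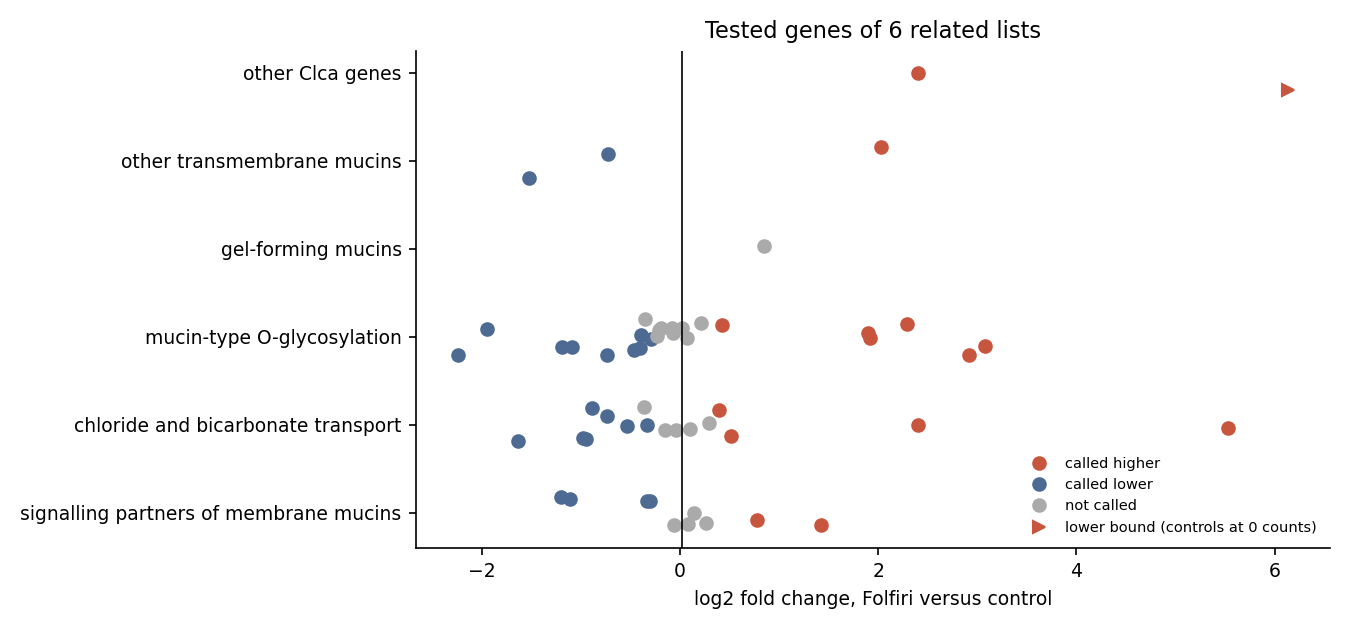
Log2 fold change (Folfiri versus control) of the tested genes in 6 related lists, with the members of the lists as points (red, called higher; blue, called lower; grey, not called) and a triangle for the lower bound of Clca3a2. The vertical line is the median of all tested genes, 0.02. Points of the 3 longer lists lie on both sides of it.

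Markers of cell types were read in the same samples, and their counts of calls stand beside the 40.3% of all tested genes called higher and the 38.8% called lower. All 10 epithelial markers were tested and their summed level was 6320 to 7371 CPM in controls and 4896 to 5078 CPM after Folfiri, with 6 called lower and 1, Cdh1, higher, a call that held in 2 of the 6 fits that left out a sample. Of 10 goblet cell markers 4 were tested, Clca1 was called higher, and Agr2 (-3.00), Fcgbp (-2.19) and Zg16 (-2.398) were called lower. Their sum was 91.1 to 95.1 CPM in controls and 24.6 to 26.7 CPM after Folfiri, and Tff3, Spdef, Atoh1 and Spink4 stayed near 0 in both groups. The Clca1 level thus moved against the other tested goblet cell markers.

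Of 12 markers of stratified squamous epithelium, where Clca2 is also known, 9 were tested, and 4 were called higher (Krt4, Dsg3, Krt5 and Krt6a) and 3 lower (Krt13, Sbsn and Sprr1a). Their sum was 103 to 117 CPM in controls and 390 to 406 CPM after Folfiri, most of it Krt4, and Trp63 had 0 counts in controls and 7, 3 and 6 after Folfiri. Of 10 colonocyte markers 4 were tested and Fabp2 and Aqp8 were called higher, Aqp8 having passed the filter through the Folfiri group only, with sums of 4.11 to 5.60 and 6.58 to 7.34 CPM. The part of these cell types in the levels of the 8 genes was not tested.

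Of 12 immune cell markers 4 were tested, S100a8 and Ptprc were called higher and Ly6g lower. Their sum was 921 to 1330 CPM in controls and 513 to 577 CPM after Folfiri, nearly all of it Ly6g, while Lyz2 and Tyrobp were at or near 0. Fibroblast markers summed to 1.08 to 1.44 CPM in controls and 2.06 to 2.45 CPM after Folfiri, with Dcn, which passed the filter through the Folfiri group only, and Pdgfra called higher and Col1a1 lower among 3 tested of 8, and Col3a1 and Pdgfrb were at 0 counts in all controls. Endothelial markers summed to 79.8 to 133 and 69.0 to 79.2 CPM, most of it Cdh5, with Vwf called lower among 3 tested of 6 and Kdr at 0 counts in all controls.

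The genes whose log2 CPM followed Clca3a1 most closely over the 6 samples were Rnf227, Npas1 and Ssx2ip, with Pearson correlations of 0.9999, 0.9998 and 0.9996. Those closest to Muc4 were Tert, Gm9042 and Gm14325, at 0.9984, 0.9983 and 0.9983. These values describe 6 samples that share 2 groups, and 2816 and 2578 of 12907 genes compared reached 0.95 with Clca3a1 and Muc4.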

How the data were processed

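RNA from 6 MTO54 samples was sequenced. Per the labels and the methods, the authors aligned reads with STAR 2.5.2 to the mouse genome, sorted alignments with Sambamba, and counted reads per GENCODE gene with Rsubread. The deposited values are raw counts without normalization, from 22103591 to 30098210 per library, and limit the precision for genes with few reads. The strand and multiple-mapping settings are not given in the sources used here.

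From the counts, edgeR 4.0.16 in R 4.3.3 was run on 3 control and 3 Folfiri samples without covariates, with filterByExpr at default settings, TMM scaling, the quasi-likelihood test and Benjamini-Hochberg adjustment over 14692 genes (threshold 0.05). The SE is the absolute log2 fold change divided by the square root of F. Count ratios carry exact conditional 95% intervals, and the floor is 3 counts. Symbols, positions and exonic lengths come from an earlier GENCODE release on the same build, GRCm38, and matched 24168 of 24190 genes. Shared windows are of 50 bases. Upstream sequences are those of RefSeq. Some items are not reported here. Proteins were aligned with Biopython 1.88. The edgeR fit was tested on simulated counts with far fewer changed genes than were called here, so scaling under so broad a change was not tested.

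The 8 genes and all lists were chosen with earlier results of these data known. Named genes are the 8, all tested genes of the Clca and mucin lists, and up to 3 per direction in each other list or locus with the largest log2 fold change among called genes with groups that do not overlap and a mean of at least 1 CPM. For the genes of the 8 with the largest and the smallest log2 fold change, the 3 most correlated genes (log2 CPM, prior count 2) were named. Genes given to account for a count of 5 or fewer fall outside this rule and were named after their values were seen. Alternatives were other scalings and filters, DESeq2 1.42.0, the replicate number as a block, and each sample left out in turn.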

Additional observations from a re-analysis of the deposited data

How the results depend on the processing

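The direction of all 8 genes was kept under each alternative that gave a value. A filter of 1 CPM in 3 samples removed Clca2 and Clca4a, and left 0 of the other transmembrane mucins called higher in place of 1. Scaling by total counts moved the median of all tested genes from 0.02 to 0.30 on the log2 scale, with 63.3% of calls higher in place of 51.0%. Of the 14692 tested genes 7322 were then called higher and 4250 lower. Log2 fold changes were then 1.43 for Muc4, 3.18 for Muc20 and 5.69 for Clca3b, the gel-forming mucins had 1 gene called higher, and the signalling partners had 6 called higher and 2 lower. Leaving out 1 sample gave 1.23 to 1.90 for Muc1, 2.68 to 3.10 for Muc20, 1.91 to 2.75 for Clca2, 5.27 to 6.04 for Clca3a1, 5.30 to 5.69 for Clca3b and 2.01 to 3.99 for Clca4a, and 0 to 1 gel-forming mucins called higher. The count of all called genes was 11623, between 11021 and 12312 with 1 sample left out, 11758 with DESeq2 and 12742 without a filter. Samples with the same replicate number did not deviate together (correlations 0.03, -0.12 and 0.04). With 3 samples per group this does not exclude that the numbers pair the samples. With the replicate number as a block 11499 genes were called, 1 gel-forming mucin among them as higher. Where not stated, the cause of a shift was not tested. Depth limits Clca2, Clca3a1, Clca4a and Muc20, which had at most 13 counts over the 3 controls.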
